A study of Mus musculus with 4 samples.

Results

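The genes described here are 47 genes of the NRF2 pathway, of glutathione metabolism and of the antioxidant enzymes, chosen by name and by what their proteins do, out of 22609 gene symbols counted in the hippocampus. All 47 were listed in each of the 4 RNA-Seq libraries, and all 47 passed the filter on low counts, so every member has a value in the comparison. The mice were female and ovariectomized, and each of the groups FLOX+GCI and FBN-ARO-KO+GCI has 2 libraries. Global cerebral ischemia (GCI) was produced in every mouse by 20 min of occlusion of both common carotid arteries, 1 week after ovariectomy, and the hippocampi were taken after 24 h of reperfusion. FBN-ARO-KO mice carry a conditional deletion of Cyp19a1, the gene for aromatase, through a Cre driven by the CaMKIIα promoter, which acts in excitatory forebrain neurons, so the gene is not deleted in other cell types. FLOX mice carry the loxP-flanked gene and served as controls. The mice of the study were age-matched adults, no library of a sham-operated mouse was analyzed here, and whether the libraries of a group came from separate mice is not stated. The p-values therefore measure the spread between these libraries, which may be technical. In whole tissue, fewer cells of a type and less RNA per cell cannot be told apart.

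NRF2, encoded by Nfe2l2, is the transcription factor that turns on many antioxidant genes. In resting cells KEAP1 holds NRF2 in the cytoplasm and hands it to a ubiquitin ligase for destruction, and oxidants or electrophiles that modify KEAP1 let NRF2 reach the nucleus, where it pairs with a small MAF protein on antioxidant response elements while BACH1 competes for the same sites. Its targets make glutathione and thioredoxin systems that reduce peroxides, supply them with NADPH, break down heme and neutralize quinones. In the brain much of this response takes place in astrocytes, and reperfusion after ischemia is a classical source of oxidants.

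Counts on genes came to between 24333396 and 33076795 per library, and 3 counts, the smallest level taken as detected, corresponded to between 0.0907 and 0.123 CPM, a level scaled to the size of the library. This floor covers counting error only. Cyp19a1 had 4 and 1 counts in the FLOX+GCI libraries against 2 and 2 in those of FBN-ARO-KO+GCI, which cannot check the deletion. Between 35.1% and 36.5% of the counted records were alignments to more than 1 place, which were left out of the gene counts, so the levels of members with near-identical copies elsewhere in the genome (such as Gpx4, Gstm1, Gstm5, Gstp1, Prdx1, Sod1 and Txn1) are uncertain. Transcripts rich in GC tended to have lower fold changes (Spearman's rho = -0.55 over 13897 genes, which are not independent replicates and share the same 4 libraries). The 2 FBN-ARO-KO+GCI libraries differed from each other along GC content as well (rho = -0.48), whereas rho was 0.10 within FLOX+GCI. For this reason a second value was fitted after the dependence on GC content and transcript length was removed from every library. It stands beside most of the members with the largest differences and is called the value after removal of the trend. Neuron markers summed to between 13297 and 13460 CPM in FLOX+GCI and between 13633 and 14491 CPM in FBN-ARO-KO+GCI over 10 genes, and all 10 were detected. Over 10 genes each, astrocyte markers summed to between 6008 and 6864 CPM and oligodendrocyte markers to between 4339 and 5109 CPM in the 4 libraries, both highest in FBN-ARO-KO+GCI replicate 2.

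None of the 47 antioxidant genes reached an adjusted p of 0.05 between the genotypes (edgeR, quasi-likelihood), and the smallest adjusted p among them was 0.238. Across all 14527 genes tested, 2 passed, which is 0.0138%. At an unadjusted p under 0.05 there were 5 members, Hmox1, Blvrb, Gpx1, Keap1 and Tkt, each of them lower in FBN-ARO-KO+GCI and 0 higher, against 7.82% of all genes lower and 8.72% higher (16.5% in either direction). Other tests gave adjusted calls for a few of these genes. DESeq2 called Gpx1 among the 24 members to which it gave an adjusted p, Hmox1 and Blvrb not being among them (5.1% of all genes with an adjusted p), the likelihood ratio test of edgeR called Hmox1 and Blvrb (2.02%), and so did the fit with the replicate number as a block (1.27%). Without FLOX+GCI replicate 1 there were 3 calls, Hmox1, Blvrb and Gpx1 (1.3% of all genes), without FLOX+GCI replicate 2 there was 1, Slc7a11 (0.854%), and without either library of FBN-ARO-KO+GCI there were 0 (0%). The fit with both the block and the removal of the trend called 0 members (0.0757% of all genes). Most of the pathway lay close to its FLOX+GCI level. The log2 fold change was smaller than 0.2 in either direction for 36 of the 47 members (60.7% of all genes tested), and the 95% interval stayed within 0.5 on the log2 scale for 35 of them. The share of all genes with such an interval was not taken, so this second count is not read as a trait of the members. The median log2 fold change of the members was -0.10, beside -0.01 for all genes tested, with 35 lower and 12 higher (51.3% of all genes were lower). After removal of the trend, the median was -0.02 beside 0.03 for all genes, the split was 28 lower and 19 higher (42.5% of all genes lower), and 0 members were called (0.0138% of all genes). At an unadjusted p under 0.05 this fit left 4 members lower, Hmox1, Blvrb, Slc7a11 and Prdx1 (3.45% of all genes), and 1 higher, Gss (8.08% of all genes). The libraries of the 2 genotypes did not overlap for 20 members, 18 lower and 2 higher in FBN-ARO-KO+GCI, while all genes tested gave 25.8% lower and 25.9% higher. These 2 higher members were Gclm (log2 fold change 0.08) and Gss (0.09), which were at -0.11 and 0.25 after removal of the trend.

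**Figure D1:**
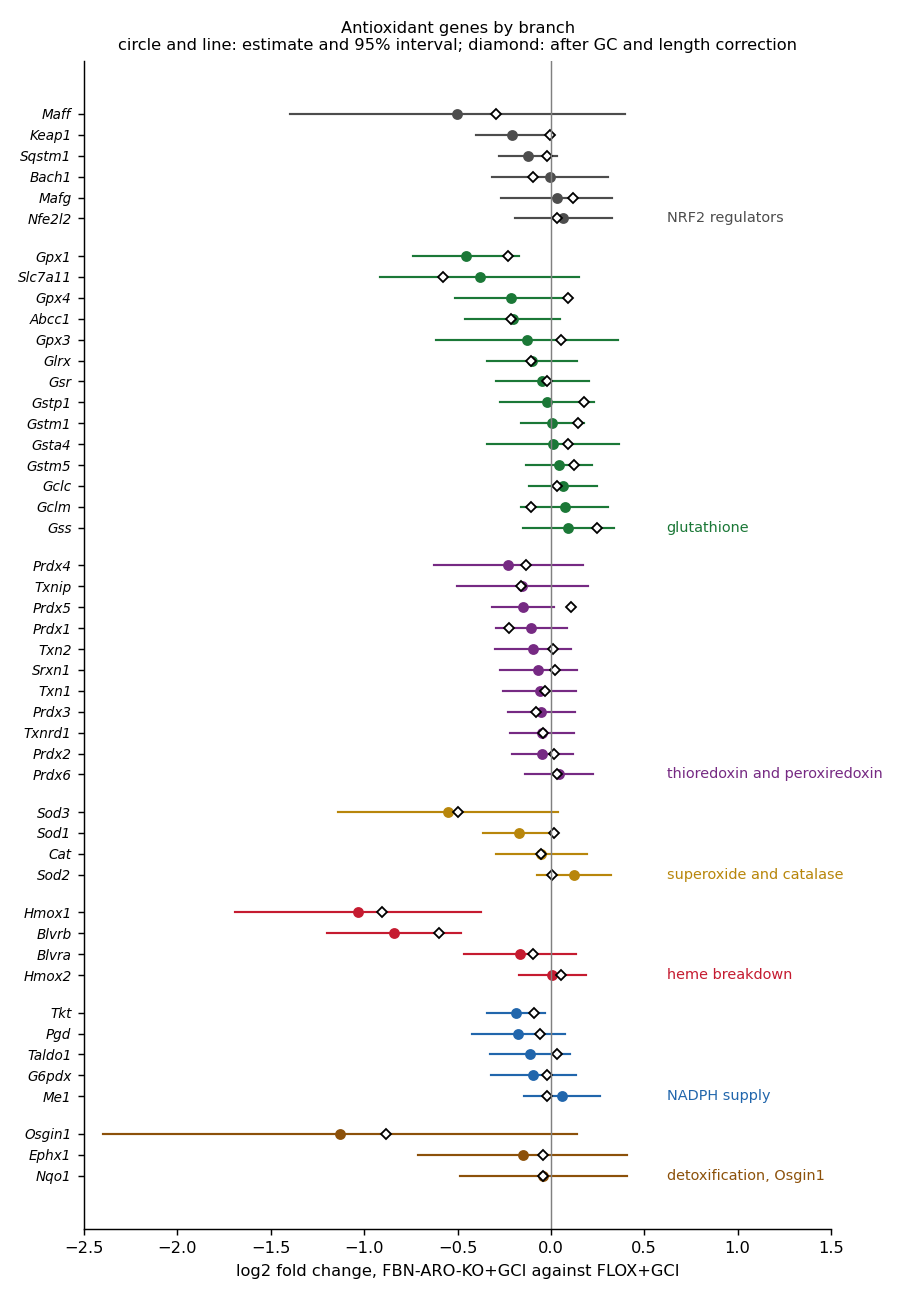
Log2 fold change of each of the 47 genes, FBN-ARO-KO+GCI against FLOX+GCI, grouped by branch (circles, with the 95% interval as a line), and the log2 fold change after removal of the trend over GC content and length (open diamonds). Most genes lie near 0, while Hmox1 (-1.03) and Blvrb (-0.84) in the heme branch stand to the left with intervals that do not include 0, and Osgin1, Maff and Sod3 have wide intervals that do.

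**Figure D2:**
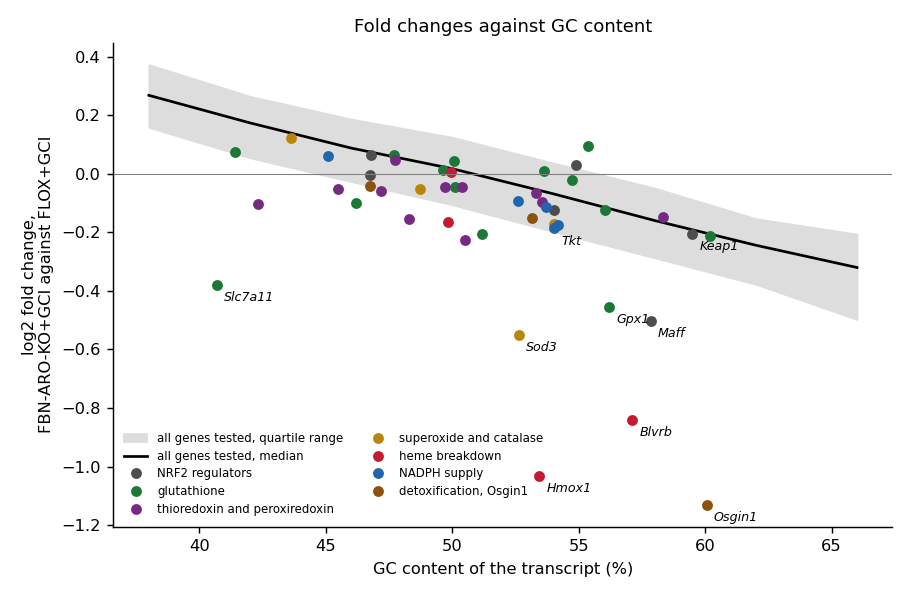
Log2 fold change against the GC content of the transcript in percent, for the 47 genes (points, colored by branch) and for all genes tested with a GC content (black line, median in bins of 4 percentage points; grey band, quartiles). The median of all genes runs from 0.27 in the bin of 36% to 40% GC to -0.32 in the bin of 64% to 68%. Keap1 lies on that line, while Hmox1, Blvrb and Osgin1 lie far below it.

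The core of the antioxidant response element, TGACNNNGC on either strand, was searched in the 250 bases before each transcription start in RefSeq (GRCm38.p6), where 40 of the 47 members have 54 start sites listed. Gclc, Gsr, Gsta4, Abcc1, Prdx6, Sod3 and Hmox1 have none there. The core was found before 10 of the 54 starts (18.5%), against 10.2% of all 32851 starts in the table, and the members with a match were Nfe2l2, Maff, Mafg, Gclm, Gstm5, Txnrd1, Prdx1, Sod1, Blvra and G6pdx. A match describes letters and not a binding site, and elements farther from the start were not searched. Other forms of the core were not searched either, so a member with no match may still have an element. The stretches below show what such a match looks like in 4 genes of the glutathione, thioredoxin and NADPH branches. The region before Blvrb is also shown, which has no match at either of its 2 listed starts. Blvrb was lower at an unadjusted p under 0.05 and was not called by the quasi-likelihood test. Each stretch runs from 250 bases before the start to the base before it, 5′ to 3′ on the strand of the gene. The match is in capitals (there is none in Blvrb). A match on the opposite strand reads GCNNNGTCA. The coordinates are chr3:122245307-122245556 on the plus strand for Gclm, chr4:116685349-116685598 on the plus strand for Prdx1, chr10:82858956-82859205 on the plus strand for Txnrd1 (1 of its 3 starts), chrX:74428881-74429130 on the minus strand for G6pdx and chr7:27447728-27447977 on the plus strand for Blvrb (the more upstream start).
Gclm: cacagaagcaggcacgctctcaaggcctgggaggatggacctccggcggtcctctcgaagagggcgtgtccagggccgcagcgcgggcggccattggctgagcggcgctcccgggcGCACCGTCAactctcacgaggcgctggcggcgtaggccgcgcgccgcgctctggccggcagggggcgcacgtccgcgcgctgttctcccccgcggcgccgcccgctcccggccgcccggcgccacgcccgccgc
Prdx1: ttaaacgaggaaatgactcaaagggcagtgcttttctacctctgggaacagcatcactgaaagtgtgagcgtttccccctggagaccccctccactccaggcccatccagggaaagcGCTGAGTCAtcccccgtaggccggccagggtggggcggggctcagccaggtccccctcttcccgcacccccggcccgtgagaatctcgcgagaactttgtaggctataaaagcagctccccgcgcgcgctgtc
Txnrd1: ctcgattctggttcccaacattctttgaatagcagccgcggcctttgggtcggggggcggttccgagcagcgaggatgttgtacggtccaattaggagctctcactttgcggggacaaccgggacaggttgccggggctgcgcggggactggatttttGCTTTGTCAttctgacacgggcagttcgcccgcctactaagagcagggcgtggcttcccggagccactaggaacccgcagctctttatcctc
G6pdx: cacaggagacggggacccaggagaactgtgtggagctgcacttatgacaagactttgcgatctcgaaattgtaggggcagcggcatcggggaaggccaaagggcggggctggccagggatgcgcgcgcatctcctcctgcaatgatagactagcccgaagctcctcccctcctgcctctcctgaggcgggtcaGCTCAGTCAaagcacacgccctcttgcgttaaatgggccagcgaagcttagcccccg
Blvrb: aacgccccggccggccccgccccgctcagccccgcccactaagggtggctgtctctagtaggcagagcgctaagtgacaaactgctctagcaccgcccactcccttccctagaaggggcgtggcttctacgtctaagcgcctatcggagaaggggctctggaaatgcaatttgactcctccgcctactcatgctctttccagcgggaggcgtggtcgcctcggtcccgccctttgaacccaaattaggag
The match lies with its first base 134 bases before the start in Gclm, 133 in Prdx1, 92 in Txnrd1 and 57 in G6pdx. The 10 members with a match had log2 fold changes from -0.50 (Maff) to 0.08 (Gclm) with a median of -0.07, and the 30 listed members with none had values from -1.13 (Osgin1) to 0.12 (Sod2) with a median of -0.11. The ranges overlapped, and no difference between the sets was tested.

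The regulators of the pathway gave overlapping groups for Nfe2l2 itself. Levels are given as CPM scaled by TMM (a scaling that balances the composition of libraries), replicate 1 before replicate 2. Nfe2l2, on mm9 chromosome 2 (75513570 to 75542698), had 19.3 and 17.7 CPM in the FLOX+GCI libraries against 19.1 and 19.7 in those of FBN-ARO-KO+GCI. The groups overlapped, and the log2 fold change of 0.07 had a 95% interval from -0.19 to 0.33. Keap1, the repressor of NRF2 (chromosome 9 from 21034174 to 21043776), had 82.2 and 82.8 CPM in the FLOX+GCI libraries against 75.1 and 67.8 in those of FBN-ARO-KO+GCI. Both FBN-ARO-KO+GCI libraries were below both FLOX+GCI libraries, with a log2 fold change of -0.21 (standard error, SE, 0.08, edgeR adjusted p = 0.282). At a GC content of 59.5%, Keap1 is among the members richest in GC, and after removal of the trend its log2 fold change was -0.01. Sqstm1 encodes p62, which binds KEAP1 and delivers it to autophagy, and had the highest level of the branch with 542 and 528 CPM in the FLOX+GCI libraries against 491 and 491 in those of FBN-ARO-KO+GCI. The groups did not overlap, by a log2 difference of -0.12 (95% interval -0.28 to 0.03), which was -0.02 after removal of the trend. Maff, a small MAF protein that is induced by stress, was scarce, with 1.36 and 2.76 CPM in the FLOX+GCI libraries against 1.60 and 1.30 in those of FBN-ARO-KO+GCI. FLOX+GCI replicate 2 alone was high, and without it the log2 fold change went from -0.50 to 0.09. With all libraries kept, it was -0.29 after removal of the trend. The partner Mafg and the competitor Bach1 had log2 fold changes of 0.03 and -0.01, with overlapping groups, and the median of these 6 genes was -0.06.

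In the glutathione branch, the 3 genes of synthesis had log2 fold changes between 0.06 and 0.09, and Gpx1 was the member with the largest difference. Gclc encodes the catalytic subunit of glutamate-cysteine ligase, the rate-limiting step, and had 69.7 and 73.7 CPM in the FLOX+GCI libraries against 73.4 and 76.5 in those of FBN-ARO-KO+GCI. Gclm encodes the modifier subunit and had 23.5 and 22.6 CPM in the FLOX+GCI libraries against 24.2 and 24.3 in those of FBN-ARO-KO+GCI. Their log2 fold changes were 0.06 (95% interval -0.12 to 0.25) and 0.08 (-0.16 to 0.31). Removal of the trend turned Gclm to -0.11, so its direction is not established. Gss, for glutathione synthetase, was at 0.09, and at 0.25 after removal of the trend, with an adjusted p of 0.383 in that edgeR fit. Slc7a11 encodes xCT, the subunit that brings in cystine for glutathione, and lies on chromosome 3 from 50168858 to 50247535. It had 64.5 and 37.4 CPM in the FLOX+GCI libraries against 42.1 and 36.2 in those of FBN-ARO-KO+GCI, so that FLOX+GCI replicate 1 stood above the other 3 libraries, which lay between 36.2 and 42.1 CPM. Its log2 fold change was -0.38 (SE 0.23, edgeR adjusted p = 0.415), 0.07 without FLOX+GCI replicate 1 and -0.72 without FLOX+GCI replicate 2. Over all 4 libraries it was -0.58 after removal of the trend (adjusted p = 0.424 in that edgeR fit).

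Among the glutathione peroxidases, Gpx1, the main cytosolic enzyme (chromosome 9 from 108241607 to 108242671), had 43.1 and 52.0 CPM in the FLOX+GCI libraries against 37.1 and 32.3 in those of FBN-ARO-KO+GCI. The groups did not overlap. The means were 47.6 ± 6.27 and 34.7 ± 3.40 CPM (SD, n = 2 each), giving a log2 fold change of -0.45 (SE 0.12, 95% interval -0.74 to -0.17, edgeR adjusted p = 0.238). Removal of the trend over GC content and length brought it to -0.23. Gpx4, which reduces lipid peroxides in membranes and guards against ferroptosis, had 17.2 and 17.2 CPM in the FLOX+GCI libraries against 16.0 and 13.6 in those of FBN-ARO-KO+GCI. FBN-ARO-KO+GCI replicate 2 was the low library, and the log2 fold change of -0.21 became 0.09 after removal of the trend. Gpx3, the secreted form, differed by -0.13 with overlapping groups. Gsr, the reductase that regenerates glutathione, differed by -0.05, and Glrx, for glutaredoxin, by -0.10. Abcc1, an exporter of glutathione and its conjugates, had 25.3 and 28.6 CPM in the FLOX+GCI libraries against 23.9 and 22.9 in those of FBN-ARO-KO+GCI. Its groups did not overlap, with a log2 fold change of -0.20 (95% interval -0.46 to 0.05) that was -0.22 after removal of the trend. The glutathione transferases Gsta4, Gstm1, Gstm5 and Gstp1, which join glutathione to electrophiles, had log2 fold changes between -0.02 and 0.04 and overlapping groups. In this branch of 14 genes the median log2 fold change was -0.03.

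The 11 genes of the thioredoxin and peroxiredoxin branch gave no member at an unadjusted p under 0.05, and their log2 fold changes lay between -0.23 and 0.05 (median -0.07). Txnrd1, the cytosolic thioredoxin reductase, had 79.9 and 82.2 CPM in the FLOX+GCI libraries against 78.4 and 78.6 in those of FBN-ARO-KO+GCI. Srxn1 encodes sulfiredoxin, which rescues overoxidized peroxiredoxins, and had 118 and 137 CPM in the FLOX+GCI libraries against 121 and 122 in those of FBN-ARO-KO+GCI. Both are widely used NRF2 targets, and their 95% intervals were -0.22 to 0.12 and -0.27 to 0.14. Prdx6, a peroxiredoxin that reduces phospholipid peroxides with glutathione, had the highest CPM of the branch, with 236 and 217 in the FLOX+GCI libraries against 226 and 242 in those of FBN-ARO-KO+GCI. Its groups overlapped. Prdx5, found in mitochondria, peroxisomes and the cytosol, had 184 and 195 CPM in the FLOX+GCI libraries against 173 and 168 in those of FBN-ARO-KO+GCI. The log2 fold change of Prdx5 was -0.15 (95% interval -0.32 to 0.02) and 0.11 after removal of the trend, at a GC content of 58.3%. Prdx1, a cytosolic peroxiredoxin with a GC content of 42.3%, moved the other way under that correction. It had 99.2 and 98.0 CPM in the FLOX+GCI libraries against 86.8 and 96.6 in those of FBN-ARO-KO+GCI, for a log2 fold change of -0.10 that became -0.22 (adjusted p = 0.333 in the corrected edgeR fit). Prdx4, the form of the endoplasmic reticulum, had 8.66 and 11.2 CPM in the FLOX+GCI libraries against 8.12 and 8.84 in those of FBN-ARO-KO+GCI, and its groups overlapped. Txn2, the mitochondrial thioredoxin, had 138 and 158 CPM in the FLOX+GCI libraries against 142 and 135 in those of FBN-ARO-KO+GCI, also with overlap. For Txn1, Prdx2 and Prdx3 the log2 fold changes were between -0.06 and -0.05. Txnip, which binds and inhibits thioredoxin, differed by -0.15.

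The enzymes that remove superoxide and hydrogen peroxide directly gave no member at an unadjusted p under 0.05 (median log2 fold change -0.11 over 4 genes). Sod1, the cytosolic copper-zinc enzyme, had 71.9 and 66.9 CPM in the FLOX+GCI libraries against 63.7 and 59.6 in those of FBN-ARO-KO+GCI. Sod2, the mitochondrial manganese enzyme, had 131 and 124 CPM in the FLOX+GCI libraries against 130.1 and 147 in those of FBN-ARO-KO+GCI. Sod1 did not overlap between the groups (log2 fold change -0.17) and Sod2 did (0.12), and after removal of the trend their values were 0.02 and 0.00. Cat, for catalase, had 67.5 and 60.4 CPM in the FLOX+GCI libraries against 56.9 and 66.6 in those of FBN-ARO-KO+GCI, with overlapping groups. Sod3, the extracellular enzyme (chromosome 5 from 52755185 to 52762644), had 15.2 and 10.1 CPM in the FLOX+GCI libraries against 10.3 and 6.90 in those of FBN-ARO-KO+GCI. FLOX+GCI replicate 1 was the highest and FBN-ARO-KO+GCI replicate 2 the lowest, and the groups overlapped only slightly. The log2 fold change of Sod3 was -0.55 (SE 0.25, edgeR adjusted p = 0.323), and it ranged from -0.88 to -0.22 as single libraries were left out. After removal of the trend it was -0.50.

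Heme breakdown had the median log2 fold change farthest from 0 of the 7 branches, at -0.50. This median of 4 genes lies midway between Blvrb (-0.84) and Blvra (-0.17), with Hmox1 below both and Hmox2 above both. Heme oxygenase opens the heme ring to biliverdin, iron and carbon monoxide, and biliverdin reductase turns biliverdin into bilirubin, a radical scavenger. Hmox1, the inducible heme oxygenase and an NRF2 and BACH1 target (chromosome 8 from 77617490 to 77624495), had 197 and 359 counts in the FLOX+GCI libraries against 170 and 171 in those of FBN-ARO-KO+GCI, which is 7.86 and 14.6 CPM against 5.13 and 5.84 CPM. Both FLOX+GCI libraries were above both FBN-ARO-KO+GCI libraries, and FLOX+GCI replicate 2 was far above replicate 1. The log2 fold change was -1.03 (SE 0.28, 95% interval -1.69 to -0.37, edgeR adjusted p = 0.238), a level of 0.489 times that of FLOX+GCI. It was -0.52 without FLOX+GCI replicate 2 (adjusted p = 0.320 in that edgeR fit) and -1.41 without FLOX+GCI replicate 1 (adjusted p = 0.00195), so its size rests on which FLOX+GCI library is kept. After removal of the trend it was -0.91. FLOX+GCI replicate 2 also had the highest level of Gfap, a marker of reactive astrocytes, at 900.3 CPM beside 396 in replicate 1. The FBN-ARO-KO+GCI libraries had 502 and 560.2 CPM of Gfap. Among the other astrocyte markers, Aldh1l1 was also highest in FLOX+GCI replicate 2. Slc1a2, Slc1a3, Gja1, S100b, Sox9, Gjb6 and Aldoc were lowest in that library, and Aqp4 was neither. The part of this library difference in Hmox1 was not tested. Hmox2, the constitutive heme oxygenase, had 91.0 and 98.1 CPM in the FLOX+GCI libraries against 96.8 and 93.3 in those of FBN-ARO-KO+GCI. The log2 fold change was 0.01, with a 95% interval of -0.17 to 0.19. Exons of Hmox2 overlap a gene on the opposite strand over 40.2% of their length. Such an overlap covers over 5% of the exons of 10 members, the others being Txnip (20.0%), Prdx5 (19.1%), Sqstm1 (17.3%), Gss (16.3%), Gstm5 (13.9%), G6pdx (13.6%), Keap1 (11.4%), Prdx2 (5.80%) and Gclm (5.76%), and whether reads were counted by strand is not known.

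Blvrb encodes biliverdin reductase B, which also reduces flavins and is abundant in red blood cells (chromosome 7 from 28232997 to 28251163). It had 257 and 283 counts in the FLOX+GCI libraries against 191 and 187 in those of FBN-ARO-KO+GCI, which is 10.3 and 11.5 CPM against 5.76 and 6.38 CPM. The libraries of each genotype were close together and the groups were well apart, with means of 10.9 ± 0.866 and 6.07 ± 0.440 CPM (SD, n = 2 each). The log2 fold change of -0.84 corresponds to 0.559 times the FLOX+GCI level. It stayed between -0.92 and -0.76 as each library was left out, and was -0.60 after removal of the trend (adjusted p = 0.333 in that edgeR fit). Blvra, the main biliverdin reductase of adult tissues, had 15.1 and 17.5 CPM in the FLOX+GCI libraries against 14.1 and 15.0 in those of FBN-ARO-KO+GCI. Blvra was lower without overlap, but only by -0.17 on the log2 scale (95% interval -0.47 to 0.13).

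Red blood cell transcripts had lower levels in the same libraries as Hmox1, Blvrb and Gpx1. Of 10 such genes 9 were listed in the files, Hba-a1, Hba-a2, Hbb-b1 and Hbb-b2 had 0 counts in every library, and 2, Beta-s (Hbb-bs) and Alas2, passed the filter. The 0 counts are not read as absence, because alignments to more than 1 place were left out of the gene counts. Beta-s made up 93.3% of the summed level in FLOX+GCI. The summed level of the list was 51.9 and 62.7 CPM in the FLOX+GCI libraries against 24.6 and 24.4 in those of FBN-ARO-KO+GCI. Beta-s, a beta-globin transcript, had 47.5 and 59.4 CPM in the FLOX+GCI libraries against 22.7 and 22.0 in those of FBN-ARO-KO+GCI, for a log2 fold change of -1.26 (SE 0.12, edgeR adjusted p = 0.0657). It has no GC content in the annotation used and was not corrected. Alas2, the erythroid enzyme that starts heme synthesis, had 4.15 and 3.08 CPM in the FLOX+GCI libraries against 1.84 and 2.29 in those of FBN-ARO-KO+GCI. In the quasi-likelihood fit neither passed an adjusted p of 0.05. Beta-s passed it with DESeq2 (1.58e-13), with the likelihood ratio test of edgeR (7.6e-15) and under the replicate block (0.000124). Beta-s also passed in the edgeR fit with both the block and the removal of the trend (0.0245), but its own counts were not corrected there. It passed without either FLOX+GCI library, and it missed the threshold without either library of FBN-ARO-KO+GCI. Alas2 had no DESeq2 adjusted p and passed in none of these edgeR fits. The macrophage and microglia markers summed to 530.0 and 528 CPM in the FLOX+GCI libraries against 505 and 543 in those of FBN-ARO-KO+GCI over 10 genes, 1 of which, Cd68, was lower at an unadjusted p under 0.05. The part of blood or of phagocytes in the levels of Hmox1, Blvrb and Gpx1 was not tested.

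**Figure D3:**
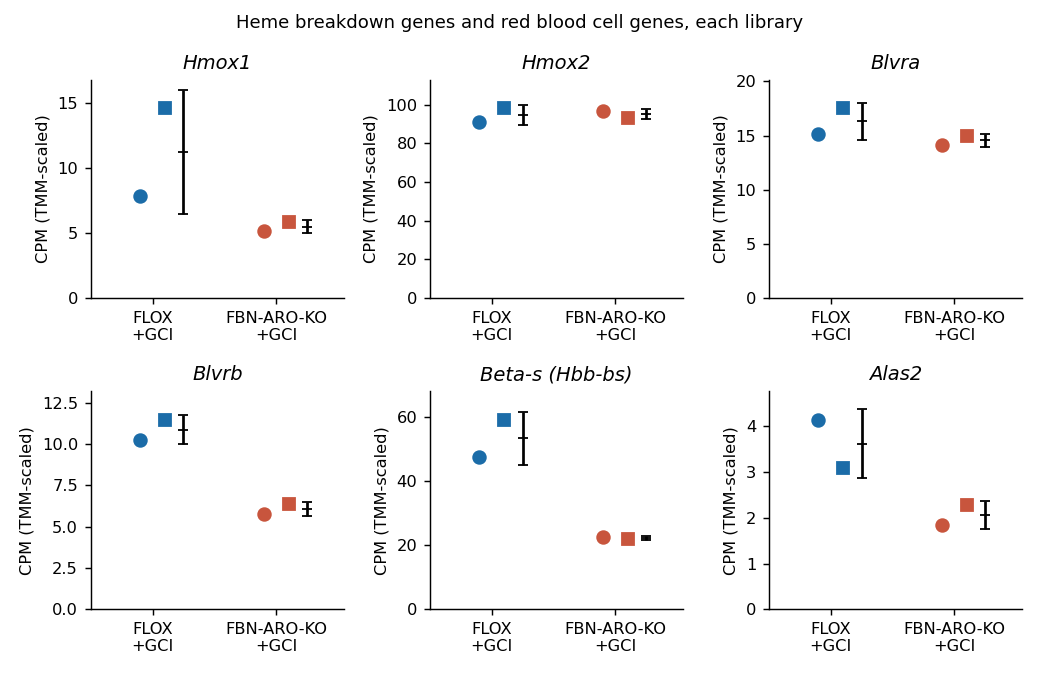
CPM scaled by TMM in each library for the 4 heme breakdown genes and for the red blood cell genes Beta-s and Alas2 (blue, FLOX+GCI; red, FBN-ARO-KO+GCI; circles, replicate 1; squares, replicate 2; black bars, mean and SD of 2 libraries). Hmox1, Blvrb, Beta-s and Alas2 are lower in both FBN-ARO-KO+GCI libraries, Hmox2 lies between 91.0 and 98.1 CPM in all 4, and Blvra differs little.

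The genes of NADPH supply lay near their FLOX+GCI level, with log2 fold changes from -0.19 to 0.06 and a median of -0.11 over 5 genes. Tkt, the transketolase of the pentose phosphate pathway (chromosome 14 from 31361545 to 31387908), had 171 and 172 CPM in the FLOX+GCI libraries against 151 and 151 in those of FBN-ARO-KO+GCI. The replicates of Tkt were nearly identical, and the log2 fold change of -0.19 (SE 0.07, edgeR adjusted p = 0.256) was small but without overlap. After removal of the trend it was -0.09. G6pdx, the rate-limiting enzyme of the pathway, had 33.8 and 36.5 CPM in the FLOX+GCI libraries against 34.2 and 31.5 in those of FBN-ARO-KO+GCI. Pgd, the next NADPH-producing step, had 34.2 and 34.8 CPM in the FLOX+GCI libraries against 32.9 and 28.3 in those of FBN-ARO-KO+GCI. Taldo1, for transaldolase, had 85.3 and 99.3 CPM in the FLOX+GCI libraries against 86.7 and 84.1 in those of FBN-ARO-KO+GCI. The groups overlapped for G6pdx and Taldo1 and not for Pgd, and after removal of the trend these 3 lay between -0.06 and 0.03. Me1, the cytosolic malic enzyme, differed by 0.06.

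Of the remaining members, Nqo1, the quinone reductase that is a widely used readout of NRF2, was scarce in this tissue and its groups overlapped. It had 4.99 and 4.18 CPM in the FLOX+GCI libraries against 4.40 and 4.51 in those of FBN-ARO-KO+GCI, for a log2 fold change of -0.04 with a 95% interval from -0.49 to 0.41. Ephx1, the microsomal epoxide hydrolase, had 37.1 and 20.7 CPM in the FLOX+GCI libraries against 27.3 and 24.8 in those of FBN-ARO-KO+GCI. The 2 FLOX+GCI libraries enclosed both FBN-ARO-KO+GCI libraries, and the log2 fold change was 0.33 without FLOX+GCI replicate 1 and -0.51 without FLOX+GCI replicate 2. Osgin1, an oxidative stress-induced growth inhibitor, had 25 and 15 counts in the FLOX+GCI libraries against 17 and 6 in those of FBN-ARO-KO+GCI. At 0.998 and 0.609 CPM against 0.513 and 0.205 CPM its groups did not overlap, and the log2 fold change of -1.13, the largest of the 47 members, had a 95% interval from -2.40 to 0.14 at these low counts. After removal of the trend it was -0.89.

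A group of members differed more within FLOX+GCI than between the genotypes. Of the 47 members, 15 were highest in FLOX+GCI replicate 1 and 24 in FLOX+GCI replicate 2. In FBN-ARO-KO+GCI 1 was highest in replicate 1 and 7 in replicate 2. The shares over all genes were not taken, so these counts are not read as a trait of the members. The 15 members highest in FLOX+GCI replicate 1 included Slc7a11, Ephx1, Sod3 and Txnip. Gsta4 (log2 fold change 0.01) was also among them and has another order of libraries. Slc7a11, Ephx1, Sod3 and Txnip were picked after their values were seen and carry no test. Txnip had 34.1 and 28.2 CPM in the FLOX+GCI libraries against 31.4 and 24.5 in those of FBN-ARO-KO+GCI, so it differed within FBN-ARO-KO+GCI as well. The summed level of 10 endothelial and mural markers, all of them above the filter, was 386 and 282 CPM in the FLOX+GCI libraries against 307 and 218 in those of FBN-ARO-KO+GCI. This is the same order of libraries as for Slc7a11, Sod3 and Txnip, and not as for Ephx1. Of those markers, Cdh5, for VE-cadherin, and Pdgfrb, for a pericyte receptor, were lower in FBN-ARO-KO+GCI at an unadjusted p under 0.05. Choroid plexus markers summed to 71.0 and 56.3 CPM in the FLOX+GCI libraries against 47.5 and 53.7 in those of FBN-ARO-KO+GCI, and 6 of the 10 passed the filter. Among these, Ttr, for transthyretin, the defining marker, had 26.5 and 21.9 CPM in the FLOX+GCI libraries against 8.93 and 15.6 in those of FBN-ARO-KO+GCI (log2 fold change -0.98). Ttr and Prlr (-0.53) were lower at an unadjusted p under 0.05, whereas Kl, a large part of the sum, was at 0.09. Whether vessel or choroid plexus content sets the levels of these members was not tested.

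**Figure D4:**
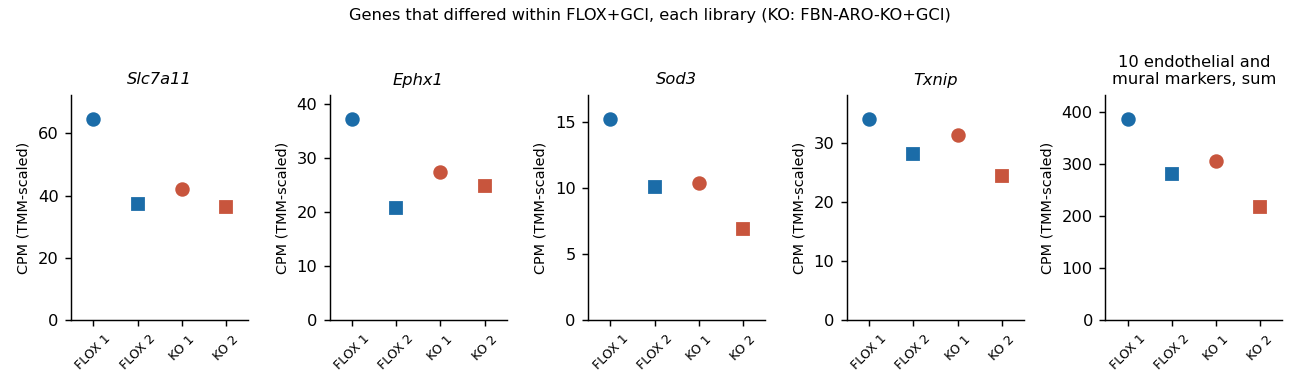
CPM scaled by TMM in each library for Slc7a11, Ephx1, Sod3 and Txnip and for the sum of 10 endothelial and mural marker genes (blue, FLOX+GCI; red, FBN-ARO-KO+GCI; circles, replicate 1; squares, replicate 2). In every panel FLOX+GCI replicate 1 is the highest library, and for Slc7a11, Sod3, Txnip and the marker sum FBN-ARO-KO+GCI replicate 2 is the lowest.

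Levels of different genes were compared as CPM per kilobase of exon, averaged over the 4 libraries. On this scale Sqstm1 (153), Gstm5 (145), Gstm1 (117) and Sod1 (101) were the most abundant members, followed by Prdx5 (84.2) and Prdx6 (62.7). The least abundant were Osgin1 (0.217), Maff (0.827) and Abcc1 (2.04), and Nqo1 was at 2.91. Nfe2l2 was at 4.99 and its repressor Keap1 at 17.2. In heme breakdown the constitutive Hmox2 was at 42.8, while Blvra (6.31), Blvrb (5.99) and Hmox1 (3.86) were far lower, so that the 2 heme genes with the largest differences belong to the scarce part of the branch. Blvra and Blvrb were neighbors in this order and differed by less than their spread over the libraries. In glutathione synthesis Gclc was at 21.4, Gclm at 4.61 and Gss at 3.94.

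**Figure D5:**
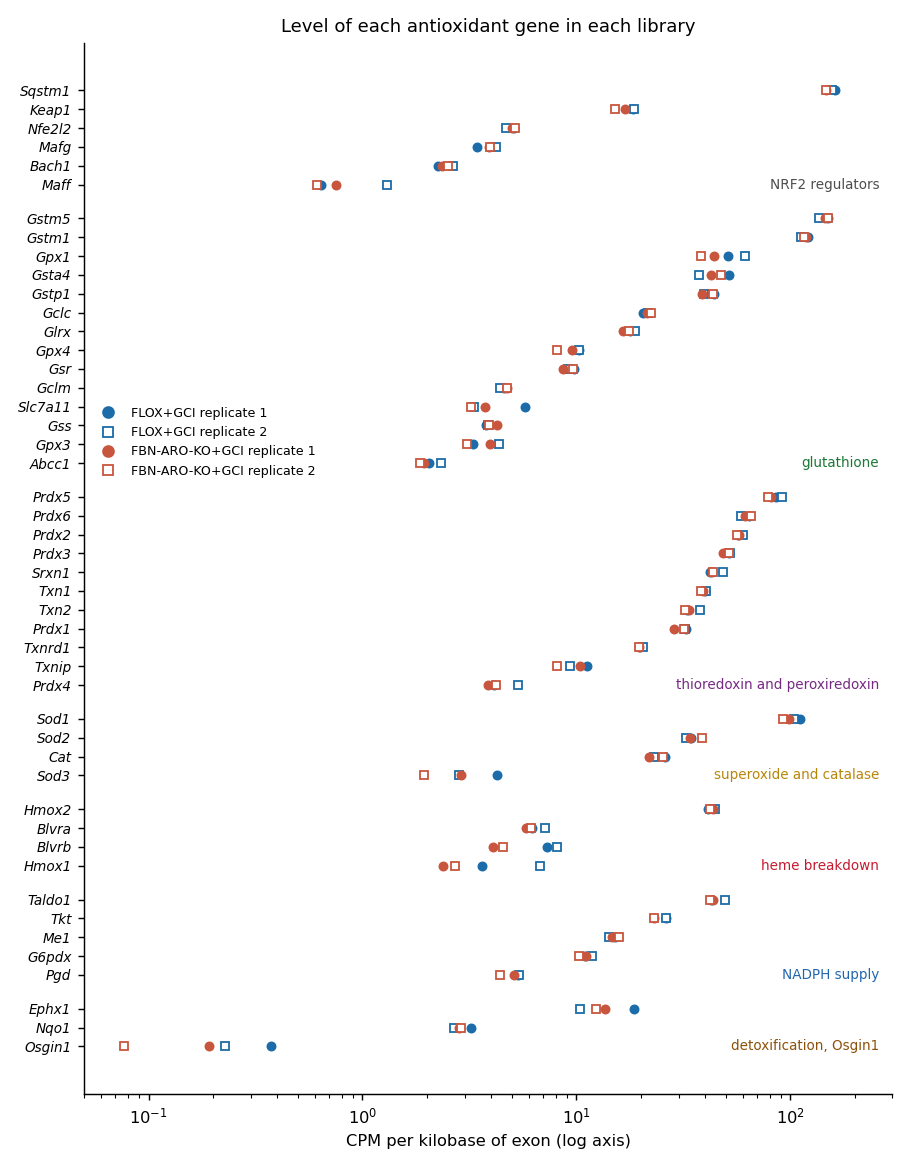
Level of each gene in each library as CPM per kilobase of exon, on a log axis, ordered by level within each branch (blue, FLOX+GCI; red, FBN-ARO-KO+GCI; filled circles, replicate 1; open squares, replicate 2). Levels run from 0.217 for Osgin1 to 153 for Sqstm1 as means of 4 libraries, and the 4 libraries of most genes lie nearly on top of each other, with the spread visible for Maff, Slc7a11, Sod3, Blvrb, Hmox1, Ephx1 and Osgin1.

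Other genes of the same pathways were read from a list of 101 genes chosen by role, of which 89 passed the filter. The edgeR fit gave 0 of them at an adjusted p under 0.05 and 12 at an unadjusted p under 0.05, 9 lower and 3 higher in FBN-ARO-KO+GCI, which is to be read against 7.82% lower and 8.72% higher over all genes. After removal of the trend there were 9 at that level, 3 lower and 6 higher (3.45% and 8.08% over all genes). The median log2 fold change was -0.05. Those with the smallest p among the lower genes were Ggt7, Slc3a2, Me3 and Glrx5, with log2 fold changes of -0.28, -0.25, -0.70 and -0.24. Slc3a2 encodes the heavy chain that pairs with xCT, and had 152 and 154 CPM in the FLOX+GCI libraries against 132 and 125 in those of FBN-ARO-KO+GCI, so that it did not share the single high library of Slc7a11. Me3, a mitochondrial malic enzyme, had 46.8 and 77.4 CPM in the FLOX+GCI libraries against 38.9 and 37.3 in those of FBN-ARO-KO+GCI, with FLOX+GCI replicate 2 high as for Hmox1. The 3 higher genes were Aldh1a1, an aldehyde dehydrogenase (0.33), Cul3, the scaffold of the ligase that destroys NRF2 (0.24), and Sesn1, for sestrin 1 (0.27). After removal of the trend Cul3 was at -0.01, Ggt7 at -0.07 and Glrx5 at 0.01, while Me3 (-0.77), Slc3a2 (-0.16), Aldh1a1 (0.30) and Sesn1 (0.20) kept their direction. The haptoglobin gene Hp and the hemopexin gene Hpx, whose products bind free hemoglobin and heme, had at most 8 counts in any library and could not be compared.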

How the data were processed

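RNA-Seq of the hippocampus gave 4 libraries, and group and replicate number were taken from their titles. The authors aligned single-end reads to mm9 with TopHat2 (2.0.8b in the submitters' processing notes), counted them with HTSeq and deposited raw counts for each symbol, not normalized. The annotation release and strand setting are not given in the sources used here. The 5 rows of reads not assigned to a gene were left out, and between 54.5% and 56.6% of the records lay on genes. The study's methods name DESeq with an adjusted p under 0.05.

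From these counts, edgeR 4.0.16 (R 4.3.3) tested all genes by quasi-likelihood, after TMM scaling and filterByExpr (minimum count 10), with Benjamini-Hochberg adjustment. Standard errors were taken from the F statistic. For a single gene, the smallest p of an exact permutation test on 2 against 2 libraries is 0.333. Positions, exon length and GC content came from GENCODE M1 on NCBIM37, the same build as mm9, and 20118 symbols had a GC content. The correction for GC content and length used natural splines with 5 degrees of freedom as an offset. Alternatives were DESeq2 1.42.0, other scalings and filters, the likelihood ratio test, a replicate block and each library left out. The procedure was tested on simulated data.

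The members, the lists and the alternatives were chosen with earlier results of these data known. The branch of superoxide and catalase, and that of Nqo1, Ephx1 and Osgin1, were formed here. Per-library values are given for up to 4 members per branch with the smallest p and for 14 members fixed by role, and up to 4 other pathway genes are named in each direction. Txnip is given by library outside this rule.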

Additional observations from a re-analysis of the deposited data

How the results depend on the processing

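The counts of members and of all genes past an adjusted p of 0.05 depended on the test and on single libraries. Against 0 of 47 members and 2 of all genes, DESeq2 called 1 member (Gpx1, adjusted p = 0.0418) of the 24 with an adjusted p, which left out Hmox1 and Blvrb, and 292 genes, and edgeR's likelihood ratio test called 2 (Hmox1, 0.0457, and Blvrb, 0.00465) and 294 genes. Testing every gene with at least 1 count called 5 genes and 0 members. With the replicate number as a block, 2 members, Hmox1 (0.0220) and Blvrb (0.0253), and 184 genes (1.27%) passed in edgeR, and with the block and the correction for GC content and transcript length 0 members and 11 genes. The libraries share only a number, and the correlation between the deviations of libraries with equal numbers was 0.129. With each library left out in turn, in fits where the lone library is assumed to vary like the other group, the count ran from 0 to 193 for all genes and from 0 to 3 for the members (Hmox1, Blvrb and Gpx1 without FLOX+GCI replicate 1, Slc7a11 without FLOX+GCI replicate 2). Members at an unadjusted p under 0.05 in edgeR numbered 8 with library totals only, beside 5 with TMM scaling. Of all genes, 7.82% were lower and 8.72% higher at that level with TMM scaling. The share with library totals only was not taken, so the 8 are not read as a trait of the members. The median log2 fold change of the members was -0.13 with library totals only, -0.02 with the correction and -0.02 with the correction and block (-0.0218 and -0.0211), and from -0.10 to -0.060 with libraries left out. The cause of these differences was not tested.

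Of the 32 members given by library under the stated rule, and Txnip beside them, the following changed direction under some settings. Maff, Slc7a11 and Gpx4 are among them, with values of -0.50, -0.38 and -0.21 in the report. Once corrected for GC content and length, Gclm went to -0.11, Gpx4 to 0.091, Prdx5 to 0.11, Sod1 to 0.016, Srxn1 to 0.019, Taldo1 to 0.034 and Txn2 to 0.012. When the block was added to the correction, these 7 were at -0.11, 0.091, 0.11, 0.017, 0.022, 0.037 and 0.015, and Ephx1 was at 0.0039. Library totals only put Hmox2 at -0.028. With libraries left out the ranges that crossed 0 were -0.17 to 0.054 for Cat, -0.51 to 0.33 for Ephx1, -0.045 to 0.060 for Hmox2, -0.92 to 0.094 for Maff, -0.17 to 0.094 for Nqo1, -0.019 to 0.11 for Prdx6, -0.72 to 0.068 for Slc7a11, -0.17 to 0.037 for Srxn1 and -0.19 to 0.0024 for Txn2. For Txnip the range with libraries left out was -0.35 to 0.015. Depth limits Osgin1 most, with between 6 and 25 counts in a library and a 95% interval from -2.40 to 0.14.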
